A study of Mus musculus with 9 samples.

Results

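Monocyte chemokines and myeloid growth factors were examined in orthotopic Hepa1-6 tumors by bulk RNA sequencing (RNA-seq). 10 genes were taken as members by name, namely Ccl2, Ccl7, Ccl8, Ccl12, Ccr2, Csf1, Csf2, Csf3, Il34 and Cx3cr1, of 52163 genes named in the tables. In each tumor, a member's level is the sum of FPKM (fragments per kilobase of transcript scaled to the mapped fragments of the tumor) over the rows that name it, which was 1 row in all 90 member values. All 10 members were above 0 in all 9 tumors and passed the filter on low values in every comparison. In PBS tumor 3 and nonresponsive tumor 2 the row of Ccr2 also named another gene, so these 2 values of Ccr2 can be too high.

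Hepa1-6 is a mouse hepatoma cell line. Pieces of Hepa1-6 tumor were implanted into the left liver lobe of male C57BL/6 mice, purchased at 6 to 8 weeks of age, so the host kept its immune system. Mice received either PBS or 5 mg per kg of the anti-PD-1 clone RMP1-14 into the peritoneum every 4 days for 5 times, from day 10 to day 26, and tumors were taken on day 27 after the surrounding tissue had been trimmed away. The 3 groups held 3 tumors each, from 1 mouse per tumor. The nonresponsive group was the largest antibody-treated tumors and the responsive group the smallest, with those between left out, so tumor size defined both groups and cannot be told apart from response.

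CCL2, CCL7, CCL8 and CCL12 are chemokines of the monocyte chemoattractant family. CCL2, CCL7 and CCL12 draw classical monocytes out of bone marrow and blood through the receptor CCR2, whereas mouse CCL8 is known as a ligand of CCR8. CSF1 and IL-34 both bind the receptor CSF1R and keep monocytes and macrophages alive, while CSF2 (GM-CSF) and CSF3 (G-CSF) drive myeloid cells and neutrophils. CX3CR1 is the receptor for the membrane-bound chemokine CX3CL1 and is high on patrolling monocytes and on some tissue macrophages.

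Because the 9 tables hold RNA of whole tumors, fewer cells of a type and less RNA per cell cannot be told apart. Depth could be read off the tables only as a ratio between tumors, which lay between 0.936 and 1.07 times that of PBS tumor 1. The markers of hepatoma cells (Afp, H19, Igf2 and Gpc3) were detected in every tumor and summed to 36.4 to 45.4 FPKM in PBS, 28.8 to 107 FPKM in nonresponsive and 10.7 to 68.4 FPKM in responsive tumors. Some values were under 1 FPKM: Afp in nonresponsive tumor 1 (0.321 FPKM) and responsive tumor 1 (0.646 FPKM), and Igf2 in PBS tumor 2 (0.805 FPKM) and responsive tumor 3 (0.771 FPKM). Entries without a gene name took 19.2% to 81.5% of the summed FPKM of a tumor and were left out. Their share was 70.4% to 73.2% in nonresponsive tumors and 21.0% to 55.1% in responsive tumors. FPKM was used as deposited, and all differences below are log2 fold changes of FPKM + 1, which understate the change of low genes.

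Promoter sequence is shown for Ccl8, the member with the lowest p in a comparison of groups (Csf2 had a larger fold change), for its neighbour Ccl12 on the same chromosome, and for Csf1, whose level followed that of its receptor. The 250 bases before each start, from RefSeq on GRCm38.p6, are written 5′ to 3′ along the gene, with motif matches in capitals. RefSeq promoter windows were matched for 6 of 10 members, with none matched for Ccl2, Ccl7, Csf3 and Il34. The windows printed are chr11:82114935-82115184 on the plus strand for Ccl8, chr11:82101595-82101844 on the plus strand for Ccl12 and chr3:107760470-107760719 on the minus strand for Csf1.
Ccl8: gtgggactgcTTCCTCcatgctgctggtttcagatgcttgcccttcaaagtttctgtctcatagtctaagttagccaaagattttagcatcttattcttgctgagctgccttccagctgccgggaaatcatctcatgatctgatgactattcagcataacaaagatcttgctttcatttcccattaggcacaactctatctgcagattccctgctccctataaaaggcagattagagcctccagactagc
Ccl12: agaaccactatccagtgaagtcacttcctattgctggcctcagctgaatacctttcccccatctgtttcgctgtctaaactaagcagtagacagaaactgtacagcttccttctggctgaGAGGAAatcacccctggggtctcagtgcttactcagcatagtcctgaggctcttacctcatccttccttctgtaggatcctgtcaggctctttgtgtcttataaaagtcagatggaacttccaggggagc
Csf1: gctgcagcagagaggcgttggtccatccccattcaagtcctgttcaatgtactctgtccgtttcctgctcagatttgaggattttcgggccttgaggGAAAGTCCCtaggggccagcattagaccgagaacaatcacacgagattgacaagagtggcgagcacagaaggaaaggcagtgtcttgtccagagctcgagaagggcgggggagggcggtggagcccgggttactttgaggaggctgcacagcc
Motifs were searched on both strands over 250 bases before and 50 bases after the start. The letters were TGANTCA for AP-1, GGGNNTTTC for part of the NF-kappaB site, TTCNNNGAA for STAT and GAGGAA for the core of the PU.1 site. Ccl8 held the PU.1 core on the minus strand at -240 and Ccl12 on the plus strand at -130, letters that 28.3% of all 32851 promoter windows hold. Csf1 held the NF-kappaB letters on the minus strand at -153, as did 4.36% of windows. AP-1 letters (7.81% of windows) and STAT letters (8.3% of windows) were found in no member's window, and the windows of Ccr2, Csf2 and Cx3cr1 held none of the letters searched. No motifs overlapped, and a match describes letters only.

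Ccl8 was the most abundant member, with a mean of 251 FPKM over the 9 tumors. Ccl7 (58.5 FPKM) and Ccl2 (57.5 FPKM) came next at nearly equal levels, followed by Ccr2 (32.4 FPKM), Ccl12 (28.8 FPKM) and Csf1 (23.0 FPKM). The mean of Ccr2 includes the values that can be too high, so its place in this order is uncertain. The lowest were Cx3cr1 (7.47 FPKM), Csf2 (6.49 FPKM), Il34 (5.45 FPKM) and Csf3 (5.22 FPKM). Below Ccl8, whose lowest tumor (133 FPKM) exceeded the highest tumor of each other member, the ranges of neighbours in this order overlapped. Csf3 varied most between tumors, from 0.307 to 11.7 FPKM, and Il34 least, from 3.41 to 7.07 FPKM. The 95% interval that Cufflinks gives had a median half-width of 5.59% of the value for Ccr2, 7.30% for Ccl8, 10.5% for Cx3cr1, 17.5% for Csf3, 27.9% for Csf2 and 41.9% for Il34. For the lowest Csf3 value, in PBS tumor 1, the half-width was 95.3%.

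**Figure D1:**
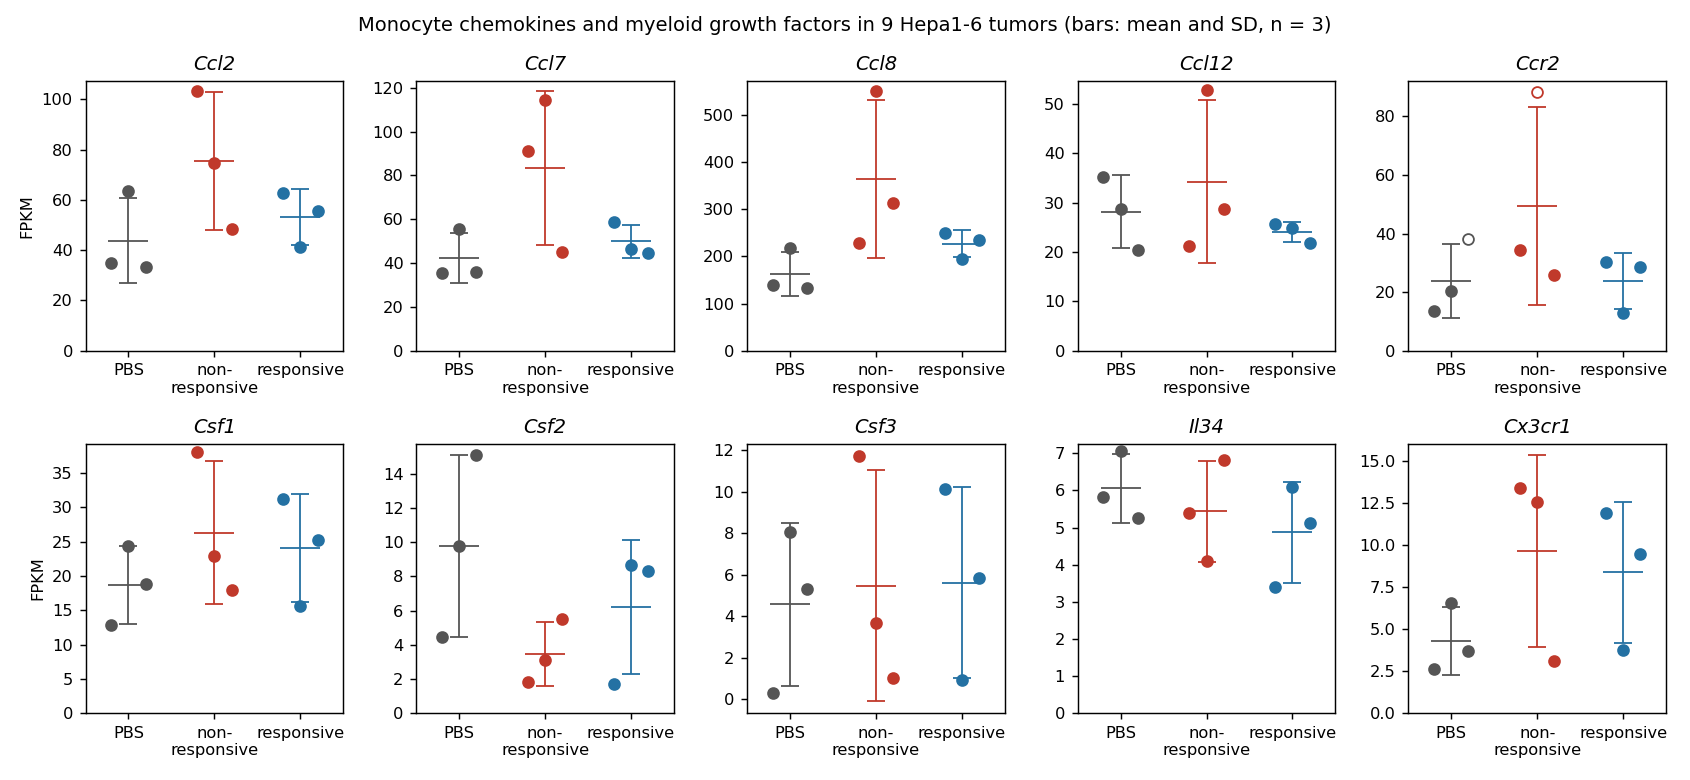
FPKM of each member (linear vertical axes, 1 panel per gene) in PBS, nonresponsive and responsive tumors. Points are tumors, in replicate order from left to right, bars give mean and SD (n = 3), and open points mark tumors where the row of Ccr2 also named another gene. Ccl8 in nonresponsive tumors (228 to 550 FPKM) lies above PBS tumors (133 to 217 FPKM), and in the other panels all groups overlap.

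The monocyte chemoattractant family was examined first. Ccl8 measured 140, 217 and 133 FPKM in PBS tumors 1 to 3, 228, 550 and 314 FPKM in nonresponsive tumors, and 250, 195 and 235 FPKM in responsive tumors. Every nonresponsive tumor was above every PBS tumor, and the responsive tumors overlapped both groups. Mean Ccl8 was 2.23-fold higher in nonresponsive than in PBS tumors, a log2 fold change of 1.09 ± 0.39 (SE, 95% interval 0.12 to 2.06). The interval lay above 0 and the unadjusted p was under 0.05, but the adjusted p of 0.719 in limma did not pass the correction over all genes. The exact two-sided permutation test gave p = 0.1, the smallest that 3 against 3 allows. The unadjusted call was lost in 4 of 6 fits that left out 1 tumor, with log2 fold changes of 1.00 without PBS tumor 1, 0.96 without PBS tumor 3, 0.75 without nonresponsive tumor 2 and 1.15 without nonresponsive tumor 3.

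Ccl8 in responsive tumors was 1.39 times the PBS mean (log2 fold change 0.50 ± 0.25, adjusted p = 0.325 in limma) and 0.623 times the nonresponsive mean (log2 fold change -0.59 ± 0.36, adjusted p = 0.964). Both intervals included 0 with all 6 tumors. Leaving out 1 tumor, responsive minus PBS ranged from 0.37 to 0.73, with an unadjusted p under 0.05 without PBS tumor 2 (0.73, beside 2532 of 15197 genes). Responsive minus nonresponsive ranged from -0.88 without nonresponsive tumor 1, where the unadjusted p was under 0.05 (beside 1581 of 15177 genes), to -0.25 without nonresponsive tumor 2. Over the 3 groups together, the F test of limma gave Ccl8 an adjusted p of 0.590. Of the members, Ccl8 alone had p under 0.05 there, beside 8.3% of all 15850 genes, and no member had an adjusted p under 0.05, beside 0.107% of genes.

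Ccl7 and Ccl2 lie next to each other on the same chromosome in the mouse. Ccl7 measured 35.6, 55.3 and 35.8 FPKM in PBS tumors, 91.1, 114 and 44.9 FPKM in nonresponsive tumors, and 58.7, 46.3 and 44.5 FPKM in responsive tumors. Ccl2, the classical monocyte attractant, measured 34.7, 63.4 and 33.2 FPKM in PBS tumors, 103, 74.5 and 48.5 FPKM in nonresponsive tumors, and 62.8, 41.2 and 55.6 FPKM in responsive tumors. For both genes nonresponsive tumors 1 and 2 were above all 7 other tumors, and nonresponsive tumor 3 lay within the range of PBS tumors.

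Nonresponsive minus PBS, the log2 fold change was 0.89 ± 0.40 for Ccl7 and 0.77 ± 0.39 for Ccl2, each with an adjusted p of 0.719 in limma. Responsive minus nonresponsive, it was -0.64 ± 0.38 for Ccl7 (adjusted p = 0.953) and -0.45 ± 0.34 for Ccl2 (adjusted p = 0.971). Responsive tumors differed from PBS tumors by 0.25 ± 0.24 for Ccl7 and 0.32 ± 0.32 for Ccl2. With the 6 tumors of each comparison, neither gene had an unadjusted p under 0.05. For nonresponsive against PBS, Ccl7 had one in the fit of all 9 tumors (adjusted p = 0.697 in limma) and with the replicate block (adjusted p = 0.854 in limma). Leaving out 1 tumor, nonresponsive minus PBS for Ccl7 was lowest at 0.62, when nonresponsive tumor 2 was dropped, and highest at 1.28, when nonresponsive tumor 3 was. For Ccl2 it ranged from 0.51 without nonresponsive tumor 1 to 1.06 without PBS tumor 2. The unadjusted p was under 0.05 for both genes without nonresponsive tumor 3, beside 2088 of 15153 genes, and for Ccl2 without PBS tumor 2, beside 489 genes. Without nonresponsive tumor 3, responsive minus nonresponsive for Ccl7 was -1.03, also with an unadjusted p under 0.05, beside 701 of 15177 genes.

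Ccl12, a chemokine of rodents that also binds CCR2, had a correlation of 0.10 with Ccl2 across the tumors. It measured 35.2, 28.8 and 20.4 FPKM in PBS tumors, 21.2, 52.9 and 28.7 FPKM in nonresponsive tumors, and 25.6, 24.8 and 21.7 FPKM in responsive tumors. Nonresponsive tumor 2 stood far above the rest, and the others overlapped across groups. The log2 fold change was 0.21 ± 0.39 for nonresponsive minus PBS (adjusted p = 0.815) and turned to -0.15 without nonresponsive tumor 2. Responsive minus nonresponsive was -0.40 ± 0.35 (adjusted p = 0.971).

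Ccr2, the receptor of CCL2, CCL7 and CCL12, measured 13.6, 20.2 and 38.0 FPKM in PBS tumors, 34.2, 88.2 and 25.9 FPKM in nonresponsive tumors, and 30.1, 12.8 and 28.5 FPKM in responsive tumors. The PBS and the nonresponsive group each had their highest value in the tumor whose row also named another gene, and all 3 groups overlapped. Nonresponsive minus PBS was 0.94 ± 0.57 on the log2 scale (adjusted p = 0.719 in limma), against 0.43 without nonresponsive tumor 2 and 1.32 without PBS tumor 3. Responsive minus nonresponsive was -0.91 ± 0.55 (adjusted p = 0.962), and -0.40 without nonresponsive tumor 2. Responsive minus PBS was 0.03 ± 0.49, which turned to -0.12 when named entries were scaled to the same total and was 0.41 without PBS tumor 3.

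Among the growth factors, Csf1 measured 12.9, 24.3 and 18.8 FPKM in PBS tumors, 38.0, 23.0 and 18.0 FPKM in nonresponsive tumors, and 31.2, 15.6 and 25.3 FPKM in responsive tumors. All groups overlapped, with log2 fold changes of 0.45 ± 0.36 for nonresponsive minus PBS, 0.34 ± 0.34 for responsive minus PBS and -0.11 ± 0.38 for responsive minus nonresponsive, and adjusted p between 0.564 and 0.990 in limma. Il34, the other ligand of CSF1R, was low and flat, at 5.83, 7.07 and 5.25 FPKM in PBS tumors, 5.38, 4.11 and 6.82 FPKM in nonresponsive tumors, and 3.41, 6.09 and 5.12 FPKM in responsive tumors. Its mean was below that of PBS tumors in both antibody-treated groups, by -0.15 ± 0.23 in nonresponsive (adjusted p = 0.787) and -0.28 ± 0.23 in responsive tumors (adjusted p = 0.490) on the log2 scale, within the spread between tumors. The 95% intervals of these differences, -0.71 to 0.42 and -0.86 to 0.30, leave room for changes in both directions.

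Csf2 had its lowest mean in nonresponsive tumors. It measured 4.47, 9.77 and 15.1 FPKM in PBS tumors, 1.82, 3.09 and 5.49 FPKM in nonresponsive tumors, and 1.73, 8.65 and 8.34 FPKM in responsive tumors. The mean in nonresponsive tumors was 0.355 times that in PBS tumors, with PBS tumor 1 inside the nonresponsive range. The log2 fold change of -1.22 ± 0.50 missed the unadjusted threshold by little (adjusted p = 0.719 in limma), with a 95% interval from -2.45 to 0.01. Leaving out 1 tumor, it ranged from -0.86 without PBS tumor 3 to -1.64 without PBS tumor 1, and the unadjusted p was under 0.05 without PBS tumor 1 (beside 257 of 15153 genes) and without nonresponsive tumor 3 (-1.53, beside 2088 genes). Responsive minus PBS was -0.65 ± 0.64 (adjusted p = 0.557), and responsive minus nonresponsive was 0.57 ± 0.59 (adjusted p = 0.971). Both moved with single tumors. Responsive minus PBS was -0.05 without responsive tumor 1, -0.29 without PBS tumor 3 and -1.07 without PBS tumor 1. Responsive minus nonresponsive was 1.17 without responsive tumor 1, with an unadjusted p under 0.05 beside 446 of 15177 genes. Dropping nonresponsive tumor 3 gave 0.88 and dropping responsive tumor 2 gave 0.26. The value was 0.28 when either responsive tumor 3 or nonresponsive tumor 1 was dropped.

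Csf3, the neutrophil growth factor, spanned 38.2-fold between its lowest and highest tumor. The lowest value, in PBS tumor 1, had a Cufflinks 95% interval of 0.015 to 0.599 FPKM, so this fold is imprecise. Csf3 measured 0.307, 8.07 and 5.33 FPKM in PBS tumors, 11.7, 3.68 and 1.02 FPKM in nonresponsive tumors, and 10.1, 0.916 and 5.83 FPKM in responsive tumors. Each group held tumors near the bottom and near the top of the range, and the 3 comparisons gave adjusted p between 0.852 and 0.996 in limma. Cx3cr1 measured 2.66, 6.60 and 3.72 FPKM in PBS tumors, 13.4, 12.6 and 3.11 FPKM in nonresponsive tumors, and 11.9, 3.77 and 9.48 FPKM in responsive tumors. Its mean was 2.24-fold higher in nonresponsive and 1.94-fold higher in responsive than in PBS tumors, with log2 fold changes of 0.87 ± 0.57 (adjusted p = 0.719) and 0.77 ± 0.47 (adjusted p = 0.384). In each antibody-treated group 1 tumor lay within the PBS range and the other two above it. Leaving out 1 tumor, responsive minus PBS ranged from 0.48 without responsive tumor 1 to 1.20 without responsive tumor 2, and nonresponsive minus PBS from 0.56 (nonresponsive tumor 1 dropped) to 1.46 (nonresponsive tumor 3 dropped). The unadjusted p was under 0.05 at both upper ends, beside 4365 of 15197 genes and 2088 of 15153 genes.

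Taking the 10 members as a list, 8 had a log2 fold change above 0 for nonresponsive minus PBS (median 0.61, against -0.06 over all genes), 7 for responsive minus PBS (median 0.28, against -0.11) and 2 for responsive minus nonresponsive (median -0.27, against -0.06). Leaving out 1 tumor, the medians ranged from 0.47 to 0.96, from 0.04 (without responsive tumor 1) to 0.50 and from -0.60 (without nonresponsive tumor 3) to -0.16. With named entries scaled to the same total the counts were 8, 6 and 1. Each group enters a pair of these comparisons, so the medians are not independent of each other. No member had an adjusted p under 0.05 in any comparison. The share of all genes that did was 0.0726% for nonresponsive against PBS, 0.217% for responsive against PBS and 0.0988% for responsive against nonresponsive. At an unadjusted p under 0.05, 1 member (Ccl8) differed between nonresponsive and PBS tumors, beside 3.19% of all genes. None did between responsive and PBS tumors, beside 17.3% of genes, or between responsive and nonresponsive tumors, beside 5.44%. Groups without overlap were found for 1 member (Ccl8) in nonresponsive against PBS, beside 8.06% of genes, and for no member in responsive against PBS (28% of genes) or responsive against nonresponsive (10.7%). These counts of 0 or 1 do not set the 10 members apart from the background shares.

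**Figure D2:**
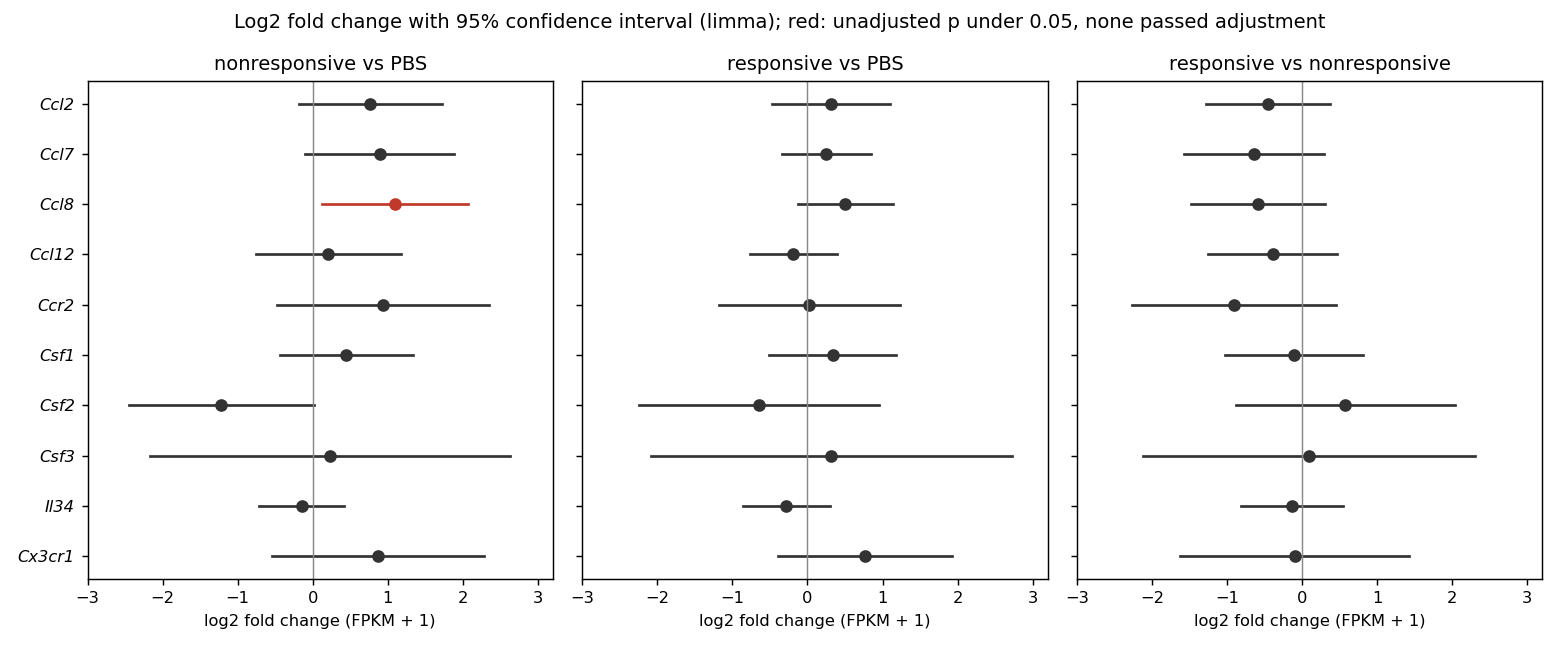
Log2 fold change of FPKM + 1 (horizontal axes) of each member, with the 95% confidence interval of limma (6 tumors per comparison). Red marks an unadjusted p under 0.05: Ccl8 (1.09) for nonresponsive minus PBS, with no adjusted p under 0.05 in any panel.

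The members did not vary as 1 block from tumor to tumor. Of 45 pairs of members, 27 had a Pearson correlation of log2(FPKM + 1) above 0 across the 9 tumors and 17 a correlation above 0.5. They ranged from -0.66 (Ccl2 with Csf2) to 0.92 (Csf1 with Csf3). Ccl2, Ccl7, Ccl8, Ccr2, Csf1, Csf3 and Cx3cr1 were positively correlated with each other, most weakly Ccl8 with Csf3 (0.14). Csf2 and Il34 were negatively correlated with each of them, and Ccl12 had both signs. Nonresponsive tumors 1 and 2 held the highest value of 4 members each, and PBS tumor 1 the lowest value of 4 members. Those of nonresponsive tumor 2 include Ccr2, whose value in that tumor can be too high. These correlations share tumors and libraries and are given as a description.

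**Figure D3:**
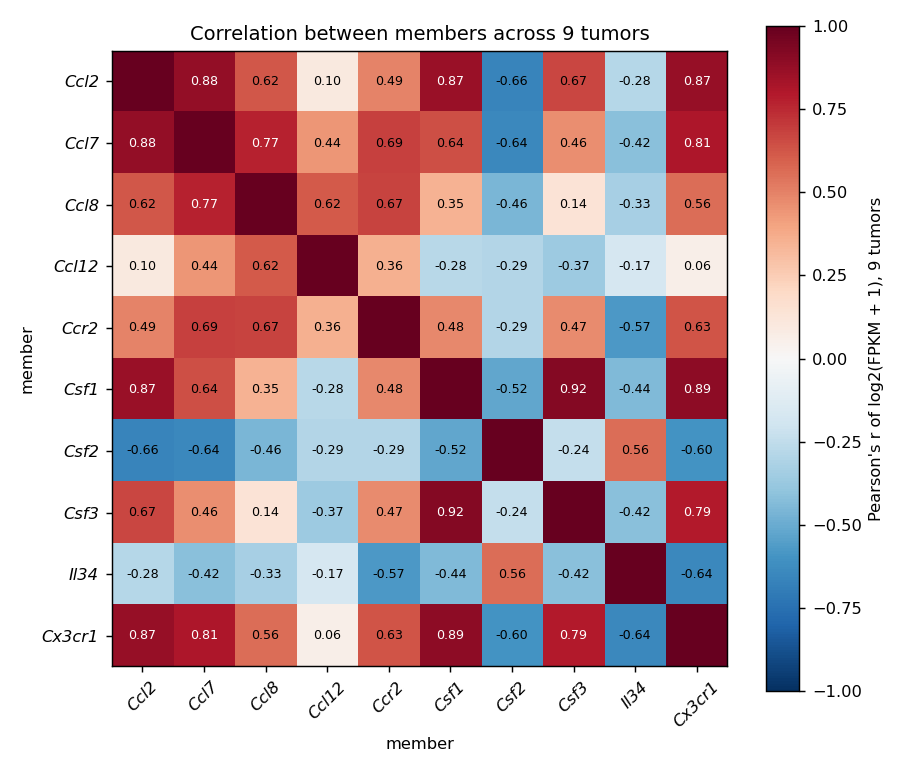
Pearson correlation of log2(FPKM + 1) between each pair of members across the 9 tumors, on a color scale from -1 to 1 with r printed in each cell. Csf1 with Csf3 is highest (0.92), and Csf2 is negative with all members but Il34.

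For 12 pairs chosen by known biology, correlations were tested with exact permutation over the 9 tumors and adjusted over the 12 pairs. The pairs came from members and lists that were chosen with earlier results of these data known. Pairs outside the 12 reached like values, such as Csf1 with Csf3 (r = 0.92) and Csf1 with Cx3cr1 (r = 0.89). Ccl2 and Ccl7 gave r = 0.88 (permutation p = 0.00118, adjusted p = 0.00473) and rho = 0.88 (adjusted p = 0.0123), with r = 0.83 without the 2 tumors farthest from the median of Ccl2. Csf1 and its receptor Csf1r gave r = 0.90 (permutation p = 0.000863, adjusted p = 0.00473) and rho = 0.88 (adjusted p = 0.0123), with r = 0.77 without the 2 farthest tumors. Csf3 and its receptor Csf3r gave r = 0.94 (permutation p = 0.000138, adjusted p = 0.00165) and rho = 0.88 (adjusted p = 0.0123), with r = 0.85 without the 2 farthest tumors. For deviations from the group means, pooled over the 9 tumors, these correlations were 0.79, 0.91 and 0.99. Single groups were not tested. Csf3r shared its row with Mrps15 in at least 1 tumor, so its level may hold reads of that gene.

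Csf1r ranged from 35.1 FPKM in PBS tumor 1 to 195 FPKM in nonresponsive tumor 1, the tumors with the lowest and the highest Csf1. Csf3r likewise ranged from 9.72 to 147 FPKM in the tumors with the lowest and the highest Csf3. The macrophage markers, a list that holds Csf1r, had their lowest sum in PBS tumor 1 (1505 FPKM) and their highest in responsive tumor 1 (9696 FPKM), with 8392 FPKM in nonresponsive tumor 1. The sum of nonresponsive tumor 1 counts 1 value shared by C1qb and C1qc for both genes. The neutrophil markers, a list that holds Csf3r, had their lowest sum in PBS tumor 1 (180 FPKM) and their highest in nonresponsive tumor 1 (5320 FPKM). The part of cell number in these relations was not tested. Il34, the second ligand of CSF1R, gave r = -0.45 with Csf1r (permutation p = 0.220, adjusted p = 0.264) and rho = -0.50.

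Ccl2 with Csf1 gave r = 0.87 (permutation p = 0.00304, adjusted p = 0.00911), but the rank correlation of 0.75 missed the threshold after adjustment (adjusted p = 0.0765). The remaining 8 pairs had adjusted p of 0.123 or more for Pearson's r. Ccl2 with Ccr2 gave r = 0.49 (permutation p = 0.174) and rho = 0.38, with both Ccr2 values that can be too high among the 9. Without the 2 tumors farthest from the median of Ccl2, nonresponsive tumor 1 and PBS tumor 3, r was 0.82. This left out the Ccr2 value of PBS tumor 3, which can be too high, and kept that of nonresponsive tumor 2. Ccl8 with Ccl12 gave r = 0.62, which turned to -0.45 without the 2 tumors farthest from the median of Ccl8, so it rested on those tumors. Cx3cr1 with its ligand Cx3cl1 gave r = -0.28 (permutation p = 0.509).

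**Figure D4:**
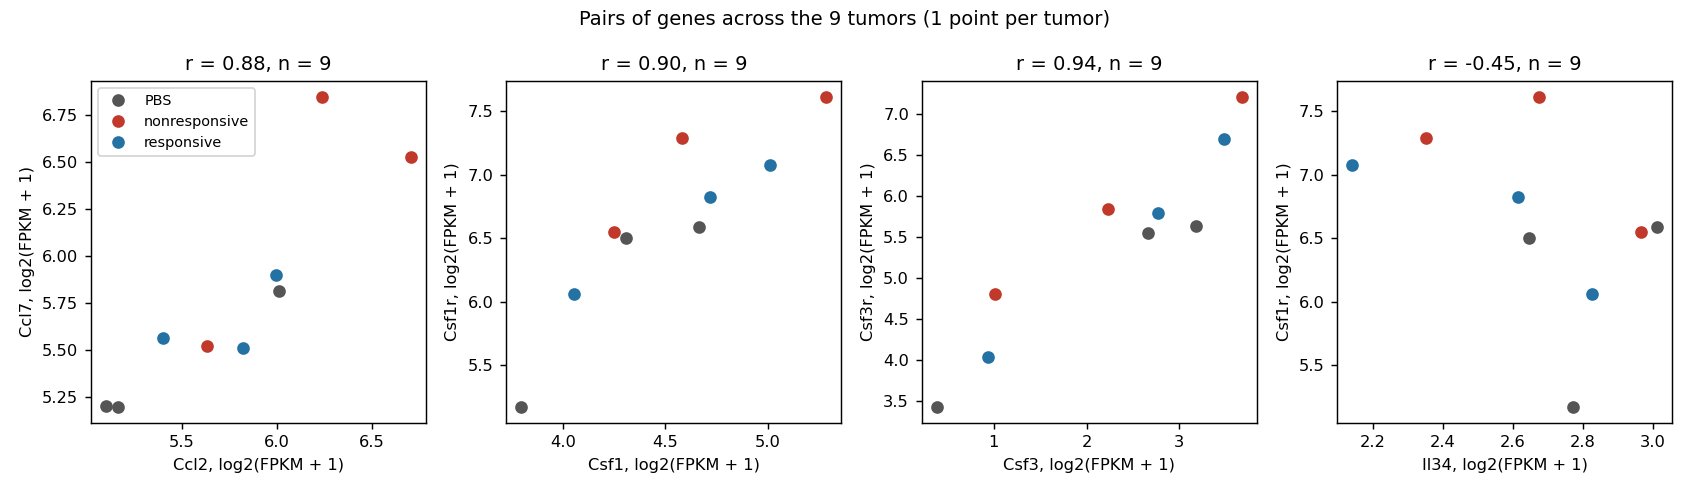
Log2(FPKM + 1) of pairs of genes in the 9 tumors (1 point per tumor, colored by group), with Pearson's r above each panel. Ccl2 with Ccl7, Csf1 with Csf1r and Csf3 with Csf3r rise together (r = 0.88, 0.90 and 0.94), and Il34 with Csf1r does not (r = -0.45).

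The genes whose levels were most like Ccl2 over the 9 tumors, among 8150 genes with at least 5 FPKM in every tumor, were Mknk1 (r = 0.98), the matrix metalloproteinase gene Mmp2 (r = 0.97), Fkbp15 (r = 0.97), and Gm14548 and Pira2 (r = 0.96 each), which share a row. Among those most like Ccr2 were Cdc42 (r = 0.95), Tmem106a (r = 0.94), Ifitm6 (r = 0.93) and the smooth muscle actin gene Acta2 (r = 0.93), with the 2 Ccr2 values that can be too high included.

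Partner genes of the members were counted next. Of 13 receptors and ligands, 11 of 12 tested had a log2 fold change above 0 for nonresponsive minus PBS (median 0.69), 9 of 11 for responsive minus PBS (median 0.20) and 3 of 11 for responsive minus nonresponsive (median -0.48). None passed the adjusted threshold, and the atypical chemokine receptor Ackr1, which binds CCL2 and CCL7 on endothelium and red cells, was alone in having p under 0.05. Ackr1 measured 2.26, 5.20 and 4.97 FPKM in PBS tumors, 13.4, 18.9 and 6.71 FPKM in nonresponsive tumors, and 9.77, 6.13 and 8.47 FPKM in responsive tumors, with both antibody-treated groups above all PBS tumors. Of all genes, 8.06% had no overlap between nonresponsive and PBS tumors and 28% none between responsive and PBS tumors. An unadjusted p under 0.05 was found for 3.19% of genes in the former comparison and 17.3% in the latter. The log2 fold change of Ackr1 was 1.40 ± 0.44 for nonresponsive minus PBS (adjusted p = 0.719) and 0.86 ± 0.32 for responsive minus PBS (adjusted p = 0.281 in limma). Ackr1 shared a row with Cadm3 in at least 1 tumor. Csf1r differed by 1.06 ± 0.49 between nonresponsive and PBS tumors (adjusted p = 0.719), Csf2ra, the specific chain of the GM-CSF receptor, by 0.67 ± 0.56 (adjusted p = 0.719) and the syndecan Sdc1, which binds IL-34, by 0.08 ± 0.42 (adjusted p = 0.936).

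Other CC chemokines were counted in the same way. Of 10 tested, 4 were above 0 for nonresponsive minus PBS (median -0.06), 4 for responsive minus PBS (median -0.03) and 6 for responsive minus nonresponsive (median 0.21), with none past the adjusted threshold. The most abundant were Ccl6, which shares rows with Ccl9, Ccl5, an attractant of T cells, and Ccl3. Ccl5 differed by 0.41 ± 0.57 between nonresponsive and PBS tumors (adjusted p = 0.762), Ccl3 by 0.24 ± 1.51 (adjusted p = 0.949) and Ccl6 by -0.03 ± 0.48 (adjusted p = 0.982). The 3 genes with an unadjusted p under 0.05 were lower than in PBS tumors. They were 1 of 10 for nonresponsive against PBS, beside 3.19% of all genes, and 2 of 10 for responsive against PBS, beside 17.3%. Ccl22 was lower in nonresponsive tumors (-0.61 ± 0.22, adjusted p = 0.719), and Ccl17 (-1.48 ± 0.51, adjusted p = 0.279) and Ccl24 (-2.58 ± 1.02, adjusted p = 0.288 in limma) were lower in responsive tumors. Ccl17 and Ccl22 encode the ligands of CCR4, and Ccl24 encodes an eosinophil attractant.

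Inducing cytokines and the NF-kappaB pathway were then counted. Of 12 genes, 9 were above 0 for nonresponsive minus PBS (median 0.37), 7 for responsive minus PBS (median 0.04) and 3 for responsive minus nonresponsive (median -0.19), and none had p under 0.05. Il1b, an inducer of Csf3, was most abundant and ranged from 36.5 FPKM in PBS tumor 1 to 1060 FPKM in nonresponsive tumor 1, with differences of 0.71 ± 1.33 for nonresponsive minus PBS (adjusted p = 0.815) and 0.31 ± 1.34 for responsive minus PBS (adjusted p = 0.900). Nfkbia, the inhibitor induced by NF-kappaB, differed by 0.42 ± 0.77 between nonresponsive and PBS tumors (adjusted p = 0.812) and Nfkb2, a subunit, by -0.16 ± 0.26 (adjusted p = 0.793).

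Transcription factors of monocytes and macrophages were counted for 7 genes of 8, with Irf8 not analysed here. 5 were above 0 for nonresponsive minus PBS (median 0.63), 6 for responsive minus PBS (median 0.37) and 2 for responsive minus nonresponsive (median -0.40). Maf, a factor of mature macrophages, was higher in nonresponsive than in PBS tumors by 1.27 ± 0.51 (adjusted p = 0.719), and Cebpa, which hepatocytes express as well, was higher in responsive than in PBS tumors by 1.35 ± 0.47 (adjusted p = 0.279 in limma). Cebpb differed by 0.59 ± 0.64 (adjusted p = 0.727) and Spi1, which encodes PU.1, by 0.77 ± 0.43 (adjusted p = 0.719) between nonresponsive and PBS tumors.

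Cell type markers were counted beside the members. The 12 macrophage markers were all above 0 for nonresponsive minus PBS (median 0.95), with p under 0.05 for C1qb, C1qc and Fcgr1, beside 3.19% of all genes. C1qb and C1qc carried 1 shared value in nonresponsive tumors 1 and 2 (869 and 972 FPKM) and separate values in all other tumors. Their differences from PBS can thus be too large, and the sums of nonresponsive tumors 1 and 2 count the shared value for both genes. The list summed to 1505 to 4246 FPKM in PBS, 3341 to 8574 FPKM in nonresponsive and 3088 to 9696 FPKM in responsive tumors. Classical monocyte markers were above 0 in 8 of 9 genes (median 0.90) for nonresponsive minus PBS. Ly6c2 went the other way, at 717, 1053 and 902 FPKM in PBS tumors and 364, 400 and 1071 FPKM in nonresponsive tumors. Its row also named at least 1 other gene in at least 1 tumor. For responsive minus nonresponsive, 2 of 9 markers were above 0 (median -0.89), with p under 0.05 for Plac8 and Vcan, beside 5.44% of all genes. The sum of the classical monocyte markers was set mostly by Ly6c2 and Plac8. It overlapped between PBS (1023 to 1644 FPKM), nonresponsive (1277 to 1680 FPKM) and responsive tumors (937 to 1371 FPKM). Neutrophil markers summed to 180 to 2489 FPKM in PBS, 563 to 5320 FPKM in nonresponsive and 448 to 3481 FPKM in responsive tumors, and were above 0 in 10 of 10 genes for nonresponsive minus PBS (median 0.95), with none at p under 0.05.

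The remaining marker lists follow. Fibroblast markers were above 0 in 0 of 8 genes for responsive minus nonresponsive (median -0.60) and in 7 of 8 for nonresponsive minus PBS (median 0.63). Hepatocyte markers summed to 426 to 5357 FPKM in PBS, 3555 to 13168 FPKM in nonresponsive and 11957 to 21391 FPKM in responsive tumors, and 10 of 10 were higher in responsive than in PBS tumors without overlap (median 2.97, 9 with p under 0.05). In that comparison 28% of all genes had no overlap and 17.3% had p under 0.05. Kupffer cell markers summed to 4.52 to 118 FPKM in PBS, 85.3 to 250 FPKM in nonresponsive and 119 to 333 FPKM in responsive tumors. T cell markers were above 0 in 8 of 8 genes for responsive minus nonresponsive (median 0.44), with p under 0.05 for Cd3d and Cd2, beside 5.44% of all genes. They summed to 64.6 to 189 FPKM in PBS, 113 to 138 FPKM in nonresponsive and 149 to 206 FPKM in responsive tumors. Nonclassical monocyte (42.9 to 151 FPKM), dendritic cell (16.1 to 55.3 FPKM) and endothelial markers (75.5 to 173 FPKM) completed the lists. No marker on these lists passed the adjusted threshold, none was at 0 in all tumors, and the part of these cells in the members' levels was not tested.

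**Figure D5:**
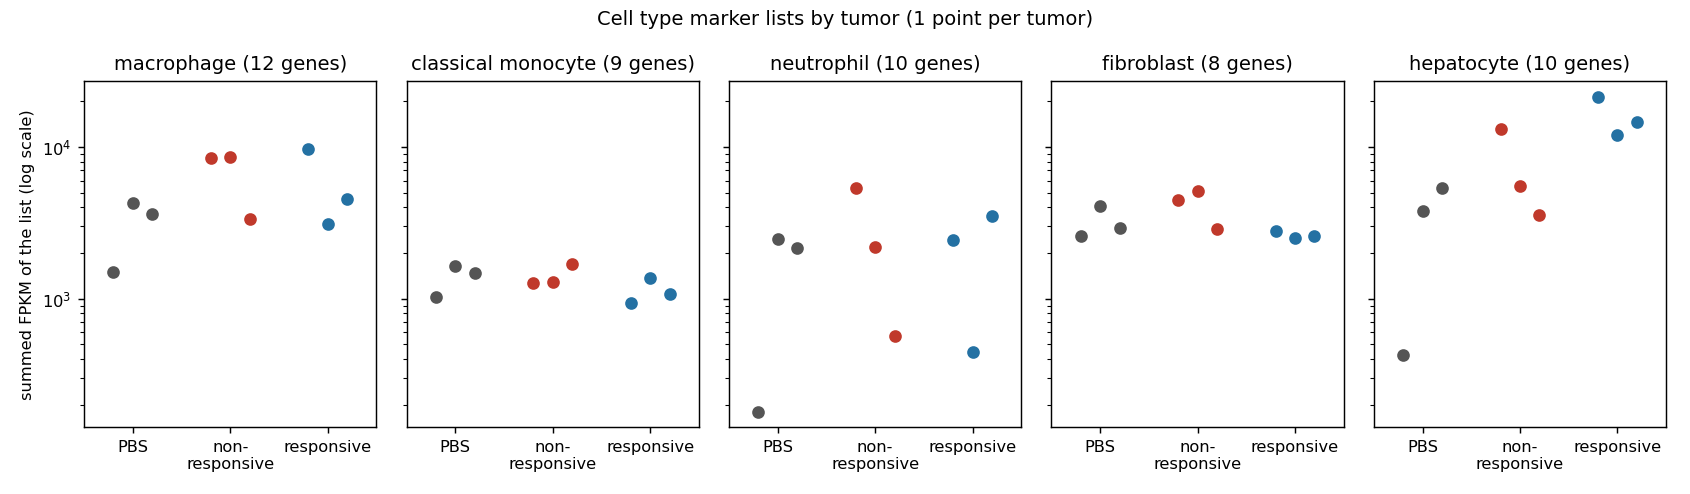
Summed FPKM of the cell type marker lists (logarithmic vertical axis, 1 point per tumor in replicate order). PBS tumor 1 is lowest for macrophage (1505 FPKM), neutrophil (180 FPKM) and hepatocyte markers (426 FPKM), and hepatocyte markers are high in all responsive tumors (11957 to 21391 FPKM).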

How the data were processed

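RNA of 9 whole tumors was sequenced from TruSeq libraries. The authors deposited 1 gene table per tumor, made by Cufflinks after assembly in that tumor, with FPKM values and their 95% interval. The submitters' notes name TopHat2 2.1.1, Bowtie2 2.2.4 and the build mm8, but gene bounds in the files left the build unsettled, so no coordinates of the files are given. A Cuffdiff table of the authors' fold changes, p-values and q-values was not used.

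FPKM was summed per gene over the rows that name it. Entries that name no gene, and 13 genes with a failed estimate, were left out. A gene entered a comparison when 3 or more of its 6 tumors reached an FPKM of 1. Values of log2(FPKM + 1) were compared two-sided by limma 3.58.1 (R 4.3.3, eBayes with trend, not robust). P-values were adjusted by Benjamini-Hochberg over every gene tested, and an F test was run over 9 tumors. A call is p or adjusted p under 0.05. SE and intervals are those of limma. Permutation tests were exact and two-sided, with 0.1 as the smallest p for 3 against 3. The limma step was tested on simulated data. Tables and plots were made in Python 3.11.15 (pandas 2.3.3, numpy 2.4.6, scipy 1.17.1, matplotlib 3.10.9).

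FPKM gives relative depth only. No tumors were duplicates (correlation of log2 values at most 0.960). The 10 members and the gene lists were chosen with earlier results of these data known. Named genes were the members, the 3 most abundant and any at p under 0.05 of 4 pathway lists, and the 5 genes most like Ccl2 and Ccr2, of which 1 is not reported here. Marker genes, and partners added as context, were named after their values were seen. Genes sharing a row carry the same value, so sums over a list can count a row more than 1 time. Pseudocount, filter, scaling, joined loci, a fit of 9 tumors, a replicate block and leaving out each tumor were tried as alternatives.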

Additional observations from a re-analysis of the deposited data

How the results depend on the processing

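Of 240 member values under alternatives other than leaving out a tumor, 2 changed sign, both with named entries scaled to the same total: Csf3, responsive minus nonresponsive, at -0.064 and Ccr2, responsive minus PBS, at -0.12. That scaling moved the unadjusted calls for responsive against nonresponsive from 609 higher and 216 lower to 325 higher and 619 lower, and for responsive against PBS from 1312 and 1321 to 1014 and 2377. It moved the median of all genes from -0.06 to -0.24 and from -0.11 to -0.24 in these comparisons, and the median of members to -0.45 and 0.13. No member had an adjusted p under 0.05 in any fit run. FPKM alone gives no counts, so precision is known only from the Cufflinks intervals. Their median half-width was largest for Il34 and Csf2, and the widest single interval was that of Csf3 in PBS tumor 1 (95.3% of the value). The causes of the changes below were not tested.

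Genes called numbered 15 for responsive against nonresponsive, and 8 with the filter at FPKM 5, 8 with joined loci and 1 with the replicate block. They numbered 33 for responsive against PBS, and 21 with the filter at FPKM 5, 19 with joined loci, 16 with all 9 tumors in 1 fit and 0 with the replicate block. For nonresponsive against PBS they numbered 11, and 5 without a filter, 5 with joined loci, 6 with all 9 tumors in 1 fit and 0 with the replicate block, where 483 genes had p under 0.05 in the unblocked fit. For any difference among groups they numbered 17, and 9 with joined loci and 7 with the replicate block. Members with p under 0.05 for nonresponsive against PBS went from 1 to 2 with upper-quartile scaling (Ccl8 and Csf2, beside 477 of 15153 genes), 2 with all 9 tumors in 1 fit (Ccl7 and Ccl8, beside 499), 3 with joined loci (Ccl8, Csf2 and the locus of Ccr2, beside 409 of 12663) and 3 with the replicate block (Ccl7, Ccl8 and Csf2, beside 253). Replicate numbers only share a number: correlations of deviations were -0.394 to 0.475 in 9 same-number pairs and -0.473 to 0.478 in 18 others.

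Leaving out 1 tumor each, genes called ranged from 12 to 36 for responsive against nonresponsive (36 without nonresponsive tumor 1, 23 without responsive tumor 2). For responsive against PBS they ranged from 30 to 70 (70 without responsive tumor 2, 60 without PBS tumor 2). For nonresponsive against PBS they ranged from 6 to 48 (48 without nonresponsive tumor 3, 19 without PBS tumor 1, 6 without PBS tumor 3 or nonresponsive tumor 2), and for any difference from 18 to 35. Members with p under 0.05 ranged from 0 to 1, 0 to 1 and 0 to 4 in the same order of comparisons (4 without nonresponsive tumor 3, beside 2088 of 15153 genes), and the median of members for nonresponsive minus PBS from 0.47 to 0.96. The sign turned in 9 of 30 member comparisons. For responsive minus nonresponsive, log2 fold changes ranged from -0.34 to 0.18 for Csf1, -0.55 to 0.82 for Csf3, -0.29 to 0.055 for Il34 and -0.69 to 0.33 for Cx3cr1. For responsive minus PBS they ranged from -0.30 to 0.41 for Ccr2 and -0.53 to 1.05 for Csf3. For nonresponsive minus PBS they ranged from -0.15 to 0.49 for Ccl12, -0.62 to 0.87 for Csf3 and -0.30 to 0.011 for Il34.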
